A study of Homo sapiens with 6 samples.

Results

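The interferon-inducible genes described here are IFI6, IFI27, ISG15, IFI35, BST2, IFI16, IFI30, IFITM1, IFITM2 and IFITM3. They were taken by symbol, 10 of the 58735 genes in the deposited table. The choice was made with earlier results of these data known, so no count over them is independent evidence. RNA was sequenced from cells labelled SKM-1, an established human line of acute myeloid leukaemia grown with 10% fetal bovine serum, after 48 hours with celastrol (3 libraries) or with DMSO, the solvent control (3 libraries). Celastrol is a plant triterpenoid that disturbs protein folding and redox balance in many cells; the labels used here state no dose. Nor do they tell whether libraries within a group were grown as separate cultures, and the p-values therefore measure only a spread between libraries that may be technical.

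Interferons are secreted proteins that cells release when they sense viral or misplaced nucleic acid. Type I interferons bind the receptor IFNAR1-IFNAR2, whose kinases JAK1 and TYK2 activate a transcription factor complex that includes STAT2 and IRF9. That complex binds the interferon-stimulated response element (ISRE), while interferon gamma acts mainly at the gamma-activated site (GAS). The genes so induced block viral entry, replication and release, and blood cells often keep a low level of them without added interferon.

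The letters that carry this response were present in front of most of the 10 genes. RefSeq windows from 250 bases before to 50 bases after the gene start (GRCh38.p14) were found for 9 of the 10, and IFITM2 was not matched. IFI16 and IFI27 have 2 such windows each, from different starts, and a gene was counted if any of its windows held the letters. The ISRE core was searched on both strands as GAAA, any 2 letters and GAAA, and 6 of the 9 genes held it, against 3.57% of all 35116 windows. The GAS core, TTCNNNGAA, which reads alike on both strands, was in 4 of the 9 genes and in 7.66% of all windows. Some GAS and ISRE matches overlapped, since the last letters of the GAS core can open an ISRE. A match is a description of letters, not evidence that a factor bound there. The 30-base stretches that hold the ISRE matches are shown so that their spacing and repeats can be compared, 5′ to 3′ on the strand of the gene, with the matched letters in capitals.
ISG15, chr1:1013377-1013406, plus strand: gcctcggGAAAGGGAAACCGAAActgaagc
IFI6, chr1:27672329-27672358, minus strand: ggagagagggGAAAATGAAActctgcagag
IFI6, chr1:27672288-27672317, minus strand: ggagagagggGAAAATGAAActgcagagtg
IFI6, chr1:27672266-27672295, minus strand: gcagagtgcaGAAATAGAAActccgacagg
IFITM1, chr11:313990-314019, plus strand: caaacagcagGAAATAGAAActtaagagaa
IFITM1, chr11:314024-314053, plus strand: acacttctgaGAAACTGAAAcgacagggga
IFITM3, chr11:320884-320913, minus strand: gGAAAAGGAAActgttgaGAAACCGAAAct
BST2, chr19:17405738-17405767, minus strand: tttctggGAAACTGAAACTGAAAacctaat
IFI27, chr14:94110625-94110654, plus strand: cagTTTCGGTTTCctgGAAAATGAAAccta

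In ISG15 and in BST2 the matches overlapped, so that GAAA recurred 3 times in a row. IFI6 carried 3 separate matches, the first and second of them with the same matched letters. IFI27 held matches on opposite strands, and the same stretch lies in both of its windows. In GENCODE 29 the IFITM1 and IFITM3 stretches lie in exons, in untranslated sequence of longer transcripts that start further upstream. The ISG15 and IFI27 stretches lie within the gene bodies outside exons. The BST2 stretch lies upstream of BST2 and inside an exon of the divergent genes BISPR and MVB12A, and the IFI6 stretches lie in the body of an antisense gene. No ISRE match was found in the windows of IFI16, IFI35 and IFI30, which says only that these letters are not in these 300 bases.

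**Figure D1:**
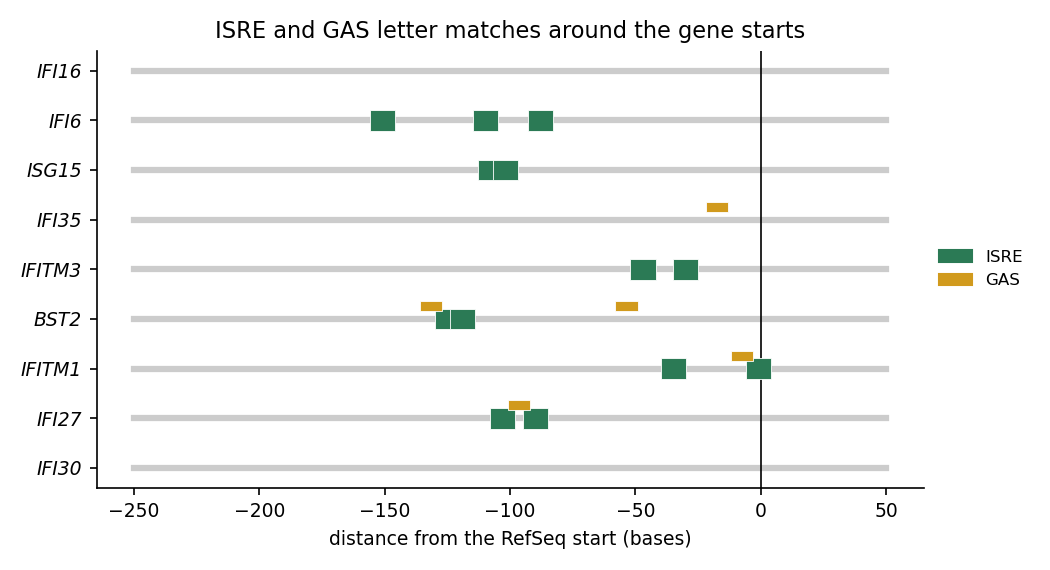
Positions of ISRE (green) and GAS (yellow) letter matches around the RefSeq start (vertical line) of 9 interferon-inducible genes. Windows run from 250 bases before to 50 bases after the start. IFI27 is drawn from its upstream start. Genes are ordered from top to bottom by log2 fold change with celastrol. IFI6 holds 3 ISRE matches, and IFI16 (2 windows, 1 line) and IFI30 hold no match of either kind.

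The design asks whether these genes differ between celastrol and its solvent. Of the 10 genes, 9 had a mean of at least 1 FPKM (fragments per kilobase of gene, scaled to library size, so that levels of different genes can be compared per length) and were tested with limma. At an adjusted p under 0.05, 7 of the 9 rose with celastrol and none fell. Among all genes, 15.3% of the 12685 tested genes were called higher and 14.2% lower. The median log2 fold change was 0.60 over the 9 and 0.02 over all tested genes. For the same 7 genes every celastrol library lay above every DMSO library, and this held for 25.3% of tested genes, with 22.0% non-overlapping in the lower direction. Summed over the 10 genes, the level ranged from 726 to 748 FPKM with celastrol and from 507 to 561 with DMSO, most of it from BST2 and the 3 IFITM genes. In these bulk samples, more RNA per cell and a larger share of expressing cells cannot be told apart. IFI27 passed the minimum through its celastrol libraries alone; the other 8 tested genes averaged above 1 FPKM in both groups.

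**Figure D2:**
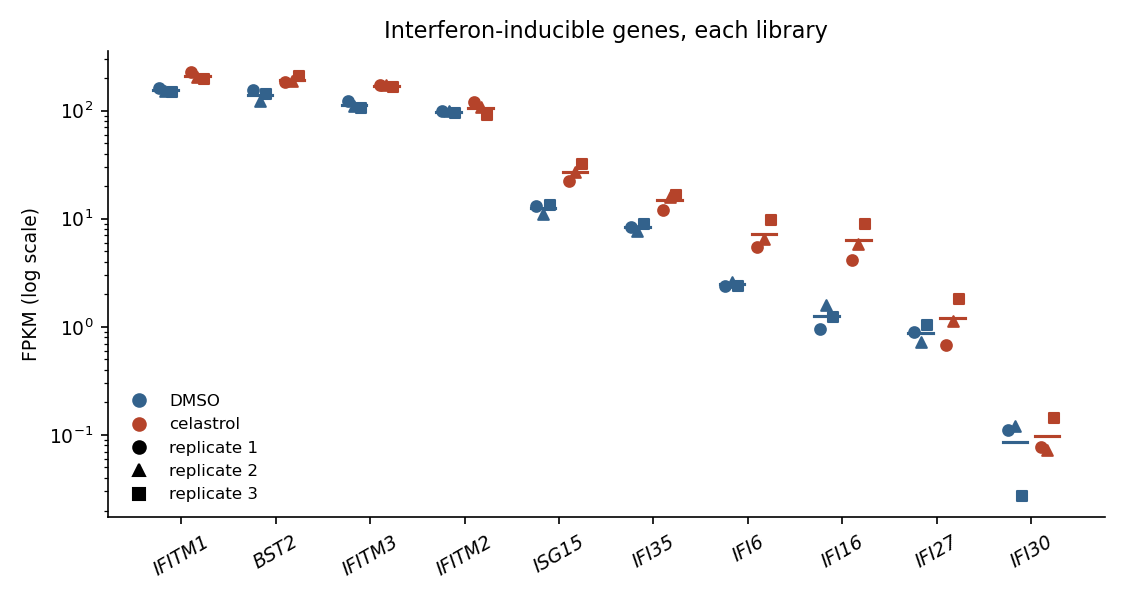
Deposited FPKM (log axis) of the 10 genes in each of the 3 DMSO (blue) and 3 celastrol (red) libraries; symbols mark the replicate number and lines the group means. IFI16, IFI6, ISG15, IFI35, BST2, IFITM1 and IFITM3 show no overlap between the groups, while IFI27, IFITM2 and IFI30 do.

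IFI16, a sensor of DNA in the nucleus and a member of the PYHIN family (chromosome 1, 158999968 to 159055155), moved most. It measured 4.15, 5.82 and 8.91 FPKM in celastrol replicates 1 to 3 and 0.958, 1.59 and 1.23 FPKM in DMSO replicates 1 to 3. The groups did not overlap, and the lowest celastrol library was still 2.62 times the highest DMSO library. Its log2 fold change was 2.19 (SE 0.28, adjusted p = 0.00171), rank 38 from the top among all tested genes. The reads behind these values numbered 347 to 793 with celastrol and 73 to 113 with DMSO. AIM2, the cytosolic DNA sensor of the same family and its neighbour on the opposite strand (chromosome 1, 159062484 to 159147096), lay at 1.04, 1.77 and 2.87 FPKM against 0.242, 0.407 and 0.335. AIM2 rose by a log2 fold change of 2.13 (adjusted p = 0.0105), but it passed the minimum through celastrol alone and was no longer called when celastrol replicate 3 was left out (adjusted p = 0.0599). The other PYHIN genes of the cluster, MNDA and PYHIN1, had at most 2 reads in any library.

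IFI6 and IFI27 encode small related membrane proteins, of which IFI6 is known to restrict flaviviruses. IFI6 (chromosome 1, 27666061 to 27672218) measured 5.42, 6.54 and 9.76 FPKM with celastrol and 2.41, 2.58 and 2.41 with DMSO. Its DMSO libraries were nearly level and its celastrol libraries spread 1.80-fold, all above DMSO (log2 fold change 1.47, SE 0.19, adjusted p = 0.00189). The DMSO values rest on 30 or 31 reads per library, which bounds their precision. IFI27 (chromosome 14, 94104836 to 94116698) measured 0.672, 1.13 and 1.81 FPKM with celastrol and 0.888, 0.716 and 1.04 with DMSO. Celastrol replicate 1 was the lowest of all 6 libraries and replicates 2 and 3 the highest, so the groups overlapped. IFI27 was not called (log2 fold change 0.33, 95% interval -0.54 to 1.20, adjusted p = 0.541), an interval that holds a doubling as well as a decrease. Its log2 fold change was 0.0059 without celastrol replicate 3 and 0.66 without replicate 1. IFI27L1, a relative of IFI27, lay at 7.45 ± 1.32 FPKM in the celastrol and 7.37 ± 0.143 in the DMSO libraries (SD, n = 3 each); its near-zero difference takes either sign depending on the library left out.

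ISG15 is a ubiquitin-like protein that is attached to newly made proteins during the interferon response (chromosome 1, 1001138 to 1014540). It measured 22.2, 26.9 and 32.3 FPKM with celastrol and 13.1, 11.0 and 13.5 with DMSO. The lowest celastrol library was 1.64 times the highest DMSO library (log2 fold change 1.09, SE 0.14, adjusted p = 0.00181). The enzymes of ISG15 conjugation did not move as a group: of 6 genes, 3 were tested, 1 was higher and 1 lower. UBA7, the enzyme that activates ISG15, rose from 2.77 ± 0.162 to 4.83 ± 0.381 FPKM (adjusted p = 0.00163). TRIM25, a ligase that can attach ISG15, fell from 21.2 ± 1.02 to 14.6 ± 1.68 FPKM (adjusted p = 0.00563). UBE2L6, the conjugating enzyme, lay at 19.6 ± 1.31 against 17.8 ± 2.57 FPKM and was not called. HERC5, the main ISG15 ligase of human cells, had 0 reads in every library, and USP18, which removes ISG15, had at most 4.

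IFI35, a partner of the signalling protein NMI (chromosome 17, 43006725 to 43014456), measured 12.0, 15.9 and 16.4 FPKM with celastrol and 8.38, 7.75 and 8.93 with DMSO. All celastrol libraries were above all DMSO libraries (log2 fold change 0.81, SE 0.13, adjusted p = 0.00383). NMI itself lay at 15.2 ± 0.729 against 13.1 ± 1.81 FPKM and was not called (limma adjusted p = 0.163). Its groups did not overlap, with celastrol higher, but the nearest libraries were almost level, at 14.6 and 14.5 FPKM.

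BST2, or tetherin, which holds budding enveloped viruses at the cell surface (chromosome 19, 17402939 to 17405648), measured 183, 188 and 208 FPKM with celastrol and 154, 123 and 142 with DMSO. This smaller difference still separated the groups (log2 fold change 0.47, SE 0.10, adjusted p = 0.0109). BISPR and MVB12A, the divergent genes whose exons cover the ISRE letters in front of BST2, were looked up after the values of BST2 were seen. BISPR measured 4.20, 3.92 and 2.77 FPKM with celastrol and 4.33, 4.22 and 4.35 with DMSO, so that its groups did not overlap, with celastrol lower, but it was not called (log2 fold change -0.26, 95% interval -0.61 to 0.09, adjusted p = 0.232). MVB12A averaged 11.3 ± 0.0581 against 11.8 ± 1.25 FPKM (SD, n = 3 each) and was not called either.

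The IFITM proteins sit in the plasma membrane or in endosomes and block fusion of incoming viruses. IFITM3 (chromosome 11, 319669 to 327537) measured 173, 171 and 165 FPKM with celastrol and 122, 110 and 105 with DMSO, the tightest celastrol group of the 9 tested genes (log2 fold change 0.60, SE 0.07, adjusted p = 0.00153). IFITM1 (chromosome 11, 313506 to 315272) measured 228, 202 and 197 FPKM with celastrol and 161, 151 and 149 with DMSO (log2 fold change 0.44, SE 0.08, adjusted p = 0.00552). Both genes were above DMSO in every celastrol library. IFITM2 (chromosome 11, 307631 to 315272) measured 119, 108 and 90.1 FPKM with celastrol and 98.5, 99.2 and 96.0 with DMSO. Its celastrol libraries lay on both sides of the narrow DMSO range, and it was not called (log2 fold change 0.10, 95% interval -0.14 to 0.34, adjusted p = 0.483). After rescaling to TPM, IFITM2 passed as higher (log2 fold change 0.34, adjusted p = 0.0342), a scaling under which 41.5% of all tested genes were called higher.

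The ratio of IFITM3 to IFITM2 was 1.45, 1.58 and 1.83 in the celastrol libraries and 1.24, 1.11 and 1.09 with DMSO. For IFITM1 to IFITM2 the ratio ranged from 1.87 to 2.19 with celastrol and from 1.52 to 1.63 with DMSO. The ratio of IFITM1 to IFITM3 was lower with celastrol, 1.18 to 1.31 against 1.32 to 1.42, and the nearest libraries of the groups were almost level. A ratio within a library does not depend on how the library was scaled, and none of the 3 overlapped between groups. The 3 ratios are not independent, since each follows from the others. Each ratio gave a two-sided exact permutation p = 0.1 (0.1 after adjustment), the smallest that 3 against 3 libraries allow. The IFITM genes share sequence. In GENCODE 29, 351 exonic bases, 32.5% of IFITM1 and 22.7% of IFITM2, are annotated to both genes. Of the 1342 distinct 50-base words of IFITM3 transcripts, 188 recur in IFITM2. A further 287 exonic bases, 21.3% of IFITM3, are also annotated to AC136475.5, a noncoding gene on the opposite strand. The sources used here do not say how reads in such stretches were counted, and the division between these genes is uncertain.

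IFI30, a thiol reductase of lysosomes that prepares antigens for display (chromosome 19, 18173162 to 18178117), was barely detected. It had 3, 3 and 6 reads with celastrol and 4, 4 and 1 with DMSO, or 0.0728 to 0.144 and 0.0271 to 0.120 FPKM. At this depth no difference was detectable. Of its exonic bases, 40.2% are annotated to the overlapping gene AC007192.1 as well.

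**Figure D3:**
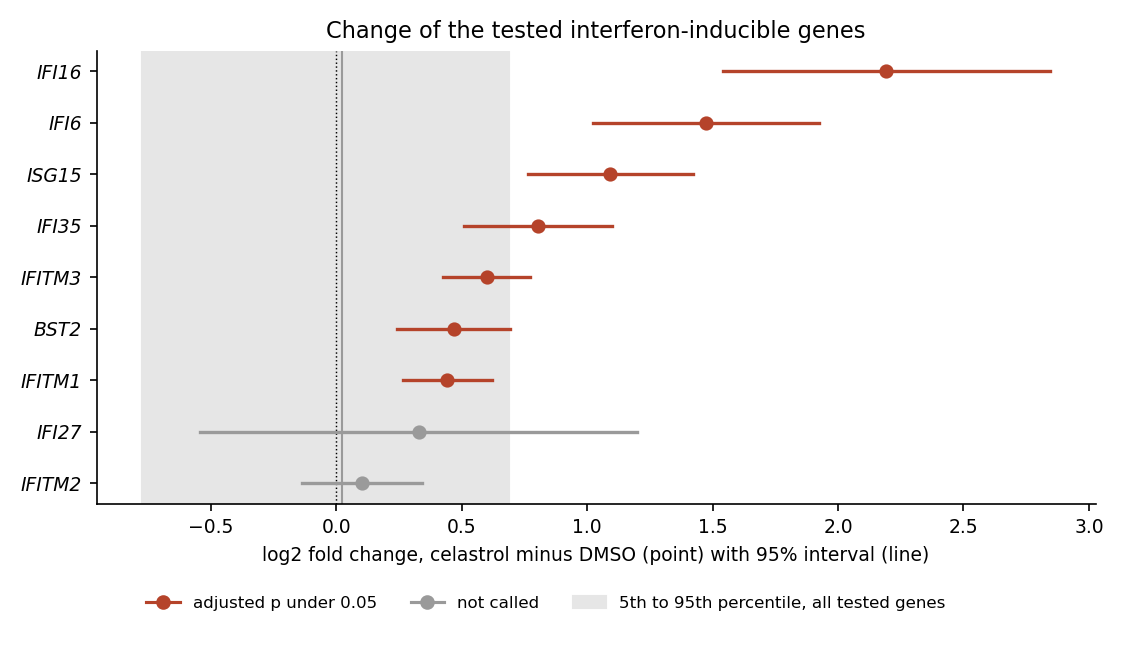
Log2 fold change (celastrol minus DMSO) of the 9 tested genes with the 95% interval from limma; red marks an adjusted p under 0.05. The grey band spans the 5th to 95th percentile of all tested genes, -0.77 to 0.69, and its line the median, 0.02; IFI16, IFI6, ISG15 and IFI35 lie beyond the band.

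The 7 called genes differed in the size of the rise. IFI16 and IFI6, at 1.26 and 2.47 FPKM in DMSO on average, were 5.00-fold and 2.94-fold higher. ISG15 and IFI35, at 12.6 and 8.36 FPKM, were 2.16-fold and 1.77-fold higher. IFITM3, BST2 and IFITM1, at 112, 140 and 154 FPKM in DMSO, were 1.51-fold, 1.38-fold and 1.36-fold higher. The 95% intervals of neighbours in this order overlapped, IFI27, the lowest tested gene, was not called, and differences between neighbours were not tested outside the IFITM genes.

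Libraries of the celastrol group differed in a pattern. Replicate 3 was the highest celastrol library for 7 of the 10 genes, namely IFI6, IFI27, ISG15, IFI35, BST2, IFI16 and IFI30, and 38.9% of tested genes were highest there. For the 3 IFITM genes the highest was replicate 1 and the lowest replicate 3. The spread between celastrol libraries, as an SD of log2 values, was 0.65 for IFI27, 0.54 for IFI16 and 0.43 for IFI6, where the median of tested genes was 0.10. Without celastrol replicate 3 the log2 fold changes of IFI16, IFI6 and ISG15 were 1.91, 1.24 and 0.96, and all 7 calls held.

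Upstream of these genes, no interferon was detected as RNA. Of 21 interferon genes, 20 had 0 reads in all 6 libraries, where a count of 0 allows up to 3 reads per library, and IFNK had 2 reads in celastrol replicate 1. The receptors and relay were expressed: 8 of 12 genes were tested, 5 were higher and none lower (median log2 fold change 0.35). Beside this count and those of the other lists stand the shares over all tested genes, 15.3% higher and 14.2% lower. IFNAR1, a chain of the type I receptor, rose from 8.53 ± 0.711 to 11.8 ± 0.498 FPKM (adjusted p = 0.00684). The kinase JAK1 rose from 19.3 ± 0.388 to 25.4 ± 0.503 FPKM (adjusted p = 0.00385). The interferon gamma receptor chains IFNGR1 and IFNGR2 rose by log2 fold changes of 0.38 and 0.40 (adjusted p = 0.0150 and 0.0344). IFNGR1 was no longer called when celastrol replicate 3 or DMSO replicate 3 was left out (0.0503 and 0.0550). IFNGR2 kept its call when celastrol replicate 2 was left out, and lost it when any other library was (0.0523 to 0.103) or when the filter was dropped (0.0961). STAT2 at 0.17 and TYK2 at 0.21 were not called, although both passed as higher under TPM, scaling to listed reads and limma-voom, and TYK2 also without DMSO replicate 1. IRF9, a DNA-binding partner of STAT2, was under the minimum, at 0.413 ± 0.0189 FPKM with celastrol and 0.563 ± 0.0992 with DMSO. IFNAR2 was also under it, at 0.484 ± 0.0672 and 0.337 ± 0.125 FPKM (SD, n = 3 each).

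Among sensors and adaptors, 8 of 16 were tested (median 0.36). None was lower and 4 were higher, including AIM2, which passed the minimum through celastrol alone. Besides AIM2 these were DHX58, a regulator of RNA sensing, at 2.81 ± 0.305 against 1.47 ± 0.190 FPKM, and the kinases IKBKE, 1.74-fold higher, and TBK1, 1.49-fold higher. TBK1 was no longer called when celastrol replicate 3 or DMSO replicate 3 was left out (adjusted p = 0.0595 and 0.0638), or unfiltered (0.0613). The adaptor gene STING, listed as TMEM173, showed a log2 fold change of 0.04 and was not called, and CGAS, its upstream DNA sensor, had at most 6 reads. Of 9 interferon regulatory factors 4 were tested and 1 was called, IRF3, which the kinases TBK1 and IKBKE activate (log2 fold change 0.26, adjusted p = 0.0317). IRF3 kept this call without DMSO replicate 1 and lost it without any other single library (0.0563 to 0.115), unfiltered (0.0568) and with a replicate block (0.0510). IRF7 at 0.43 (adjusted p = 0.0832) was not called and passed under TPM, scaling to listed reads and limma-voom. IRF1 at -0.15 and IRF2 at -0.06 were not called, and under TPM both lay above 0.

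A longer list of 57 other interferon-stimulated genes was mostly low in these cells, with 26 tested, 11 higher and 1 lower (median 0.23). GBP2, a guanylate-binding protein, measured 2.53, 3.07 and 4.02 FPKM with celastrol and 0.686, 0.651 and 0.600 with DMSO. GBP2 rose by a log2 fold change of 2.13 (SE 0.21, adjusted p = 0.000626), and it too passed the minimum through celastrol alone. LGALS3BP, a secreted glycoprotein, was 1.80-fold higher, APOL2 1.81-fold and PARP10 1.69-fold. PARP10 was no longer called when celastrol replicate 2 or 3 was left out (adjusted p = 0.0761 and 0.0554), or unfiltered (0.0566). The gene called lower was PLSCR1, named after its value was seen, at a log2 fold change of -0.30. Of the 57 genes, 12 had at most 3 reads in every library, 6 of them 0 throughout. MX1, which traps viral nucleocapsids, had 0 to 2 reads per library. OAS1, which makes the activator of RNase L, had 2 reads in celastrol replicate 1 and 0 elsewhere, and IFI44L had 0 in all. IFIT1, which binds viral RNA caps, had 7, 9 and 9 reads with celastrol and 4, 6 and 4 with DMSO. CXCL10, a chemokine chosen after its values were seen, had 0 reads in each celastrol library and 12, 6 and 9 with DMSO. Of the genes under the minimum, OAS3, OASL, ISG20 and LGALS9 were also lower in every celastrol library than in any DMSO library. SAMD9 and GBP3 were higher in the same way. OASL and GBP3 rest on at most 8 reads per library, and no gene under the minimum was tested.

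Of 7 negative regulators of the pathway, 6 were tested, 4 were higher and 1 lower (median 0.49). SOCS1, which blocks JAK kinases, rose from 18.7 ± 2.83 to 27.4 ± 0.611 FPKM, and SOCS3 from 13.6 ± 1.70 to 20.3 ± 2.25 (adjusted p = 0.00926 and 0.0101). The phosphatase PTPN6 was 1.89-fold higher, while PTPN2, a phosphatase that acts on JAK kinases, fell from 5.55 ± 0.811 to 3.42 ± 0.171 FPKM (adjusted p = 0.00572).

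**Figure D4:**
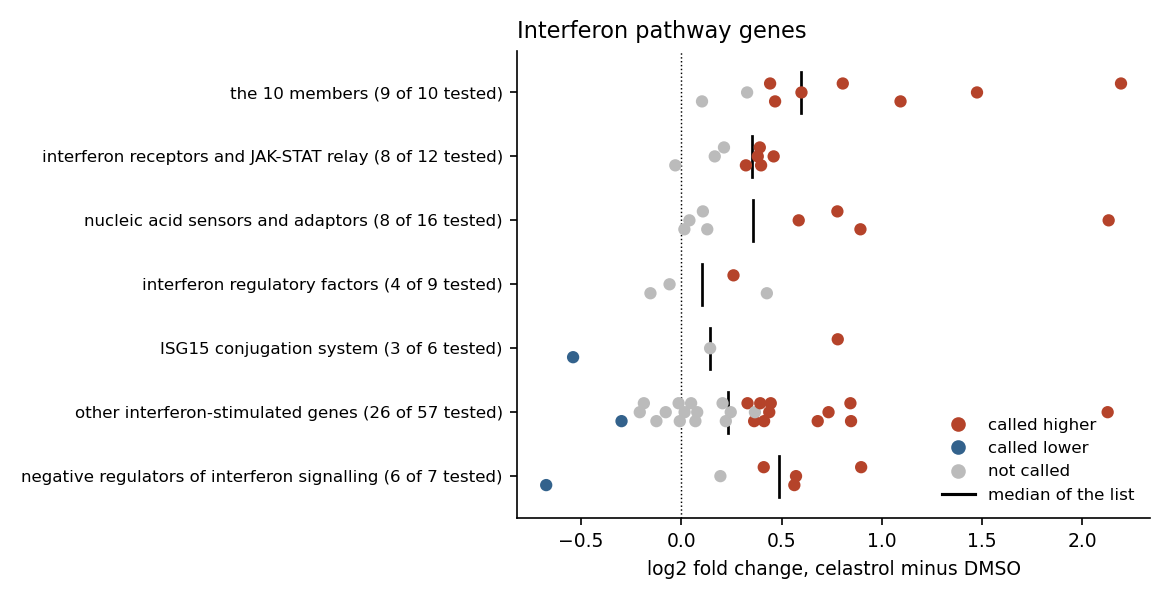
Log2 fold change (celastrol minus DMSO) of each tested gene of the 10 interferon-inducible genes and of 6 pathway lists; red marks called higher, blue called lower, grey not called, and the black bar the median of the list, 0.60 for the interferon-inducible genes. IFI16, AIM2 and GBP2 lie above 2. AIM2 and GBP2 passed the minimum through celastrol alone.

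The deposited scale bears on small changes. Higher genes made up 52.0% of all calls as deposited, 86.6% with TPM, 70.0% after scaling by listed reads and 71.4% by limma-voom, and the median of all tested genes moved to 0.26, 0.12 and 0.12. The 7 calls held under each of these, and the median of the 9 tested genes was 0.84, 0.70 and 0.70. Mitochondrial reads made up 1.54 ± 0.271% of reads in the celastrol and 5.52 ± 0.113% in the DMSO libraries (SD, n = 3 each); their part in the results was not tested. Libraries held 13549187 to 16231066 recovered reads.

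Markers of the labelled lineage were only partly present. Of 15 myeloid genes 7 were tested, 3 were lower with celastrol (LYZ, ITGAM and AZU1) and none higher. Of the 7, 2 had a positive log2 fold change, SPI1 and FCGR1A, and neither was called. LYZ lay at 17.6 ± 1.13 against 38.0 ± 1.30 FPKM and SPI1 at 22.3 ± 2.23 against 17.9 ± 3.73. FCGR1A lay at 1.57 ± 0.401 against 1.03 ± 0.109 FPKM. The granule enzyme MPO, a defining myeloid marker, had at most 2 reads, and ELANE at most 7. All 12 erythroid genes were tested and 8 fell. Among the 8, the transcription factor KLF1 lay at 44.1 ± 7.29 against 104 ± 8.03 FPKM. SLC4A1, also among them, passed the minimum through DMSO alone, at 0.347 ± 0.0685 against 2.98 ± 0.819 FPKM. RHAG, which was not called, lay at 290 ± 5.96 against 261 ± 12.4. The erythroid list summed to 675 to 741 FPKM with celastrol and 793 to 852 with DMSO, above the myeloid list in every library, in cells labelled as a myeloid leukaemia line. Myeloid markers summed to 52.3 to 56.8 FPKM with celastrol and 72.2 to 84.2 with DMSO. Plasmacytoid dendritic cells make much type I interferon; of their 6 markers 1 was tested, and CLEC4C and GZMB had 0 reads. Of 8 lymphoid markers 4 were tested and 2 were higher, CD3D at 8.50 ± 0.634 against 6.27 ± 0.605 FPKM and NKG7 at 4.53 ± 0.425 against 0.813 ± 0.432 FPKM. NKG7 passed the minimum through celastrol alone. PRF1, another gene of cytotoxic cells, lay at 6.56 ± 0.576 against 8.08 ± 1.06 FPKM and was not called, and CD2, CD3E and MS4A1 had at most 3 reads. The lymphoid list had a summed level of 21.4 to 22.9 FPKM with celastrol and 15.6 to 19.2 with DMSO. Of 6 epithelial and stromal markers, the 2 tested, EPCAM and KRT19, fell, and the list summed to 117 to 119 against 145 to 166 FPKM. The part of these shifts in the interferon-inducible genes was not tested.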

How the data were processed

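FPKM per gene were deposited by the authors for 6 libraries; per the submitters' processing notes, the tools were HISAT2 2.0.5 and featureCounts 1.5.0-p3 and the build GRCh38 (hg38). Settings, strand handling and library total: not given in the sources used here. Every one of the 58735 identifiers is in GENCODE 29. FPKM times gene length was a whole multiple of 1 read in 100% of non-zero entries, at a tolerance of 0.001 reads, which gave back the reads per gene. The total the authors divided by was 1.04 to 1.05 times the listed reads with celastrol and 0.963 to 0.994 times with DMSO.

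Titles gave each sample its group and number. Values were log2(FPKM + 0.1) for genes with a mean of at least 1 FPKM, which shrinks the fold change of a low gene. Tests used limma 3.58.1 in R 4.3.3 (limma-trend, treatment alone, two-sided, Benjamini-Hochberg over all 12685 tested genes, threshold 0.05), and were tested on simulated counts. Means ± SD, and folds written as N-fold, use untransformed FPKM. The 10 genes and all lists (8 pathway and 5 marker lists) were chosen with earlier results of these data known, so no count over a list is independent evidence. Genes named are the 10, 14 core genes of the pathway, up to 4 called genes of each list by size of change, and the 2 most abundant genes of lists with fewer than 2 calls. Outside this rule, and chosen after their values were seen, are BISPR, MVB12A, MNDA, PYHIN1, NMI, UBE2L6, HERC5, USP18, TMEM173, CGAS, IFI44L, PLSCR1, CXCL10, OAS3, OASL, ISG20, LGALS9, SAMD9, GBP3 and the cell type markers named. A core gene of the pathway is not reported here. Alternatives were other pseudocounts, filters and scalings, limma-voom on recovered reads, each library left out, and a replicate block. Pairs of libraries within a treatment differed by a chi-square of 4.01 to 13.4 per gene, so no library repeats another. Shared 50-base words and exon overlaps come from GENCODE 29, promoter sequences from RefSeq (GRCh38.p14).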

Additional observations from a re-analysis of the deposited data

How the results depend on the processing

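IFI16, IFI6, ISG15, IFI35, IFITM3, BST2 and IFITM1 stayed called higher under every one of the 15 alternatives in which they were tested; with a minimum mean of 5 FPKM, IFI16 and IFI6 were not tested and the other 5 were called. The weakest was BST2 without the filter (adjusted p = 0.0458). IFITM2 was called in 1 alternative (TPM) and IFI27 in none. All genes called higher numbered 5266 with TPM, 3024 after scaling by listed reads and 3650 by limma-voom, and all genes called lower numbered 813 under TPM; the cause was not tested. When each library was left out in turn, all genes called higher ranged from 1125 (without DMSO replicate 3) to 1937 and all called lower from 987 (without DMSO replicate 3) to 1767; without celastrol replicate 2 there were 1128 and 1129, and without celastrol replicate 3 there were 1228 higher. With fewer libraries each test has fewer degrees of freedom. Turned values were those of uncalled genes near 0: IRF1 at 0.077 and IRF2 at 0.18 under TPM, IRF2 at 0.038 after scaling by listed reads and 0.041 by limma-voom, and IFI27L1 at -0.022 under quantile normalization and from -0.12 to 0.13 with a library left out. Over 26 named genes outside the 10, 24 of 380 values lost a call, 10 gained 1 and 9 turned. Same-numbered libraries deviated from their group means with correlations of -0.016, -0.033 and 0.034, and differently numbered ones with -0.028 to 0.041. Libraries of the same number thus shared no visible deviation. With 3 libraries per group, this cannot tell whether the numbers mark paired cultures. The replicate block left 7 of the 10 genes higher, and 1776 genes higher and 1617 lower in all. IFI30, and IFI6 in DMSO, are limited by depth.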
